A study of Rattus norvegicus with 4 samples.

Results

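The glutathione S-transferases described here are 10 rat genes, the cytosolic Gsta4, Gstm1, Gstp1, Gsto1, Gstt1 and Gstz1, the organellar Gstk1, and the microsomal Mgst1, Mgst2 and Mgst3. They were chosen by gene name, not by a rule on their signal, but with earlier results of these data known. Other genes of the family are listed further below. Of the 45598 probes on the array, 12 carried an accession of one of the 10. All 10 genes had at least 1 probe, out of 16581 genes with a symbol.

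The samples were NR8383 cells, a continuous line of alveolar macrophages first obtained by lavage of a normal rat lung, and the labels state 20 passages. All had been given carbon black (Printex 90), an elemental carbon nanopowder, at 0.9 cm2/cm2 and were collected after 4 h, and 4 biological replicates were each hybridised to their own 1-colour Agilent array. The series set out to compare them with cells incubated without the particle, which were not analysed here, so no fold change or effect of carbon black was computed and all values are levels in exposed cells. Being a single line in culture, the samples hold none of the other cells of a lung.

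Glutathione transferases join the thiol of glutathione to electrophilic compounds, which makes them more soluble and marks them for export and breakdown. The soluble enzymes fall into classes named after Greek letters that differ in substrates, and the microsomal enzymes belong to a separate family of membrane proteins that also includes enzymes of leukotriene and prostaglandin synthesis. Many of these genes are known targets of the transcription factor NRF2, which binds antioxidant response elements, and in macrophages the enzymes handle lipid peroxidation products and the thiol state of proteins.

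The upstream sequences of 4 members are shown because the family divided into genes with clear signal and genes without it, and because their start sites carry different short motifs. RefSeq promoter windows of assembly GRCr8 were matched for 8 of the 10 genes, and each covers 250 bases before and 50 bases after the annotated start, of which the 250 before are printed. Gstp1, Gstz1 and Mgst1 were detected on all arrays and Gstm1 on none. Capitals mark TGACNNNGC, the core of an antioxidant response element, TGACTCA, the AP-1 site, TATAAA, the TATA box, and GGGCGG, a GC box, each searched on both strands.
Gstp1 (chr1:210769706-210769955, minus strand): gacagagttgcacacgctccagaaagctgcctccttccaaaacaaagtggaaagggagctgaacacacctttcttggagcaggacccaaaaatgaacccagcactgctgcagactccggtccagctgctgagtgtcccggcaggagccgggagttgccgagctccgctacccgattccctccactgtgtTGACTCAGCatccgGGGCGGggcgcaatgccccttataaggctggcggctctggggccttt
Gstz1 (chr6:112525356-112525605, plus strand): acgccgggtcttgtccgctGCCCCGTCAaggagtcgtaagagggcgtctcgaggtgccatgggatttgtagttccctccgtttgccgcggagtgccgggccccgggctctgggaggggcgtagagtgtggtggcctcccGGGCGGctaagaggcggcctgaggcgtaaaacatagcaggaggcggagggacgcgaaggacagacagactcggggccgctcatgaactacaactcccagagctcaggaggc
Mgst1 (chr4:172760680-172760929, plus strand): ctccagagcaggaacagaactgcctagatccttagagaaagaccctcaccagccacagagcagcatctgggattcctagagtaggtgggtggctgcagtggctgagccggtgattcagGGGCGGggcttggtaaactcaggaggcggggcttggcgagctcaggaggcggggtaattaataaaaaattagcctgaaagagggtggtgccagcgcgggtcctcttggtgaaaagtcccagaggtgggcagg
Gstm1 (chr2:198343384-198343633, minus strand): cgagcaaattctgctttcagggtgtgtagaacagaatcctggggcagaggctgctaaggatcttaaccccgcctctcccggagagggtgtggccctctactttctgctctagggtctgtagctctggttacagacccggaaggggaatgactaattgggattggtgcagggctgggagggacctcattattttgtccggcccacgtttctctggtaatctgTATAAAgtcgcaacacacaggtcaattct
In the Gstp1 window, TGACTCAGC began 61 bases before the start on the gene strand, so that the antioxidant core and the AP-1 site overlap there. In the Gstz1 window the core was found on the opposite strand, 231 bases before the start, and it read GCCCCGTCA on the gene strand. The core was present in 2 of the 8 member windows, and in 12.1% of all 33469 windows of the same length. TGACTCA or its complement was present in the windows of Gstp1 and Gsto1, where it began 25 bases into the transcript, against 4.63% of all windows. The Gstm1 window was the only one of the 8 with TATAAA, 29 bases before the start, a motif found in 14.2% of all windows. GGGCGG was present in 7 of the 8, all but Gstm1, and in 33.1% of all windows. The 7 include Gsta4 and Gstk1, which were not detected, so GGGCGG did not separate detected from undetected members. Mgst1 and Mgst3 were detected, and their windows held neither the antioxidant core nor TGACTCA. These matches describe letters in a window and do not show that a factor binds there.

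Each array held 58717 non-control spots, and between 37.5% and 40.9% of the probes were marked by the scanner software as well above background. The 75th percentile of processed intensity over spots lay between 317 and 546, no spot was saturated, and the dimmest spot marked well above background had an intensity between 10.8 and 22.3, highest on replicate 1. Of 8 alveolar macrophage markers, 6 had signal of that kind on all arrays, among them Cd68, Ptprc and Spi1, while Cd163 had it on 1 array and Marco on none. Of 16 markers of epithelium, fibroblasts and endothelium, the 7 epithelial and 5 fibroblast markers had no array well above background, and of the 4 endothelial ones Cdh5 was so on 2. Intensities are in the scanner's arbitrary units. A level is log2 intensity on a scale where 0 is the 75th percentile of all probes on the same array, and it describes the signal of its own probe only, since probes differ in how strongly they bind and levels of different genes cannot be ranked.

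The 10 transferases divided into detected and undetected genes. On every array 6 of them were well above background, and on none were the other 4, so no member was detected on some arrays only. Over all genes with a symbol, 48.0% were detected on all 4 arrays. Of the 14927 genes and unnamed transcripts detected on 2 or more arrays, 13448 were detected on all 4. Genes detected on fewer arrays are outside that count. Detection on all arrays was thus the common case among them, and the split was not tested against other sets of genes. All 3 microsomal members were detected, as were Gstp1, Gsto1 and Gstz1 among the soluble ones. Gsta4, Gstm1, Gstt1 and Gstk1 were not.

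**Figure D1:**
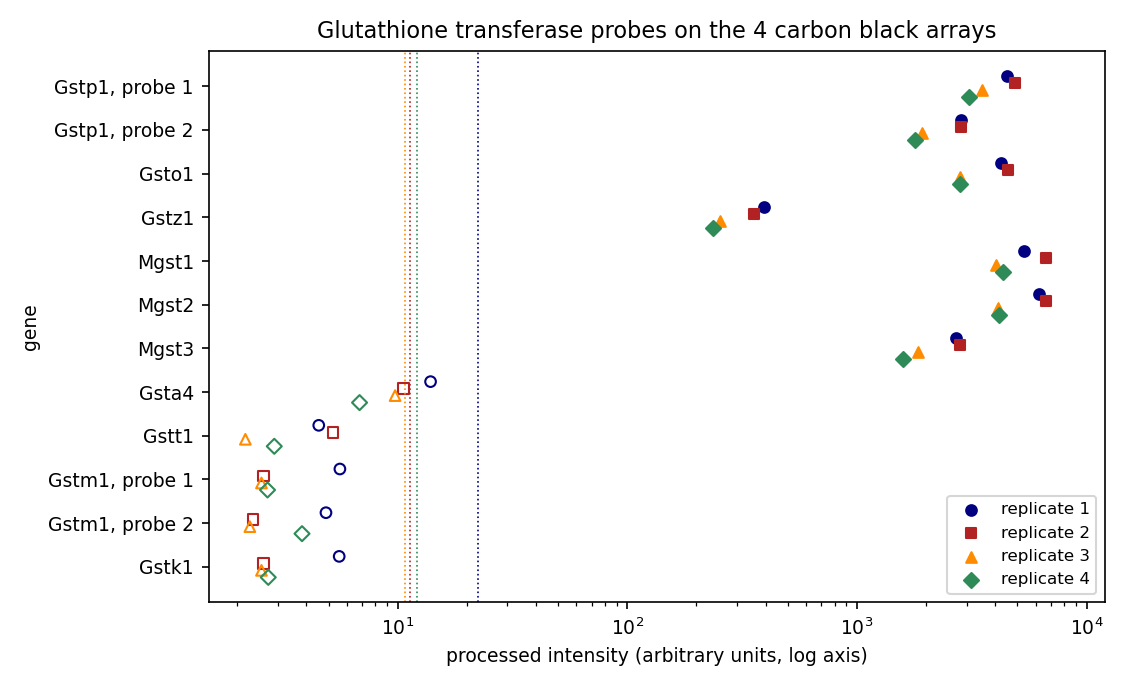
Processed intensity (horizontal log axis, arbitrary units) of all 12 probes of the 10 genes on each of the 4 arrays; filled symbols are probes well above background on all arrays, open symbols those on none, and dotted lines mark the dimmest spot well above background on the array of the same colour. The 7 probes of 6 genes lie at 237 or above, and the other 5 probes at 13.9 or below, each left of the line of its own array.

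Gstp1, the pi-class enzyme, is known in rat liver as a marker of preneoplastic foci and conjugates a broad range of electrophiles. It had 2 probes, each printed 10 times on every array. Probe A_64_P170600 had mean intensities of 4500, 4860, 3510 and 3080 on replicates 1 to 4, which became levels of 5.37, 5.70, 5.78 and 5.59, a mean of 5.61 ± 0.18 (SD, n = 4). Probe A_44_P1370070 had intensities of 2830, 2850, 1920 and 1790 and levels of 4.70, 4.92, 4.92 and 4.81, a mean of 4.84 ± 0.107. Both probes were lowest on replicate 1 after scaling, and the intensities of both were higher on replicates 1 and 2 than on replicates 3 and 4, as were the 75th percentiles of those arrays. The brighter probe stands for the gene in the tests below.

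Gsto1, the omega-class enzyme, has a cysteine in its active site and acts mainly as a thiol transferase and dehydroascorbate reductase, and in mouse macrophages it has been tied to inflammasome activation and the release of interleukin 1 beta. Its probe had intensities of 4250, 4560, 2810 and 2800 on replicates 1 to 4. The levels were 5.28, 5.61, 5.46 and 5.46, a mean of 5.45 ± 0.132 (SD, n = 4), with replicate 1 lowest and replicate 2 highest.

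Gstz1, the zeta-class enzyme, is maleylacetoacetate isomerase, a step of tyrosine breakdown. Its intensities were 392, 355, 253 and 237 on replicates 1 to 4, and its levels 1.85, 1.92, 1.99 and 1.89, a mean of 1.91 ± 0.0611 (SD, n = 4). It had the narrowest spread of the 6 detected members, 0.15 log2 units from lowest to highest array.

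The microsomal transferases are small integral membrane proteins. Mgst1, which is abundant in the endoplasmic reticulum and the outer mitochondrial membrane and also reduces lipid hydroperoxides, had intensities of 5330, 6650, 4050 and 4340. Its levels of 5.61, 6.15, 5.99 and 6.09 gave a mean of 5.96 ± 0.241 (SD, n = 4). This was the widest spread among the detected members, and replicate 1 lay lowest by 0.38 log2 units. The other 3 arrays spanned 0.16 units, with an SD of 0.0796. Leaving out replicates 2, 3 or 4 instead gave SDs of 0.251, 0.294 and 0.277.

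Mgst2, which in human cells can make leukotriene C4 outside the blood lineages, had 1 probe printed 10 times, with mean intensities of 6180, 6650, 4110 and 4170. Its levels were 5.82, 6.15, 6.01 and 6.03, a mean of 6.0 ± 0.134 (SD, n = 4). Mgst3, a related enzyme with glutathione peroxidase activity toward lipid hydroperoxides in human, was also printed 10 times and had intensities of 2690, 2800, 1840 and 1580. Its levels of 4.62, 4.90, 4.85 and 4.63 averaged 4.75 ± 0.145 (SD, n = 4), with replicates 1 and 4 close together below replicates 2 and 3.

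Repeated printing gave the error within an array, which holds printing and scanning noise only, beside the spread between arrays, which also holds that between cultures. For the brighter Gstp1 probe the median SD between its 10 spots was 0.055 log2 units, against 0.18 between arrays, a ratio of 3.27. For the other Gstp1 probe the SDs were 0.0695 and 0.107, a ratio of 1.54. For Mgst2 they were 0.0734 and 0.134, a ratio of 1.83. For Mgst3 they were 0.116 and 0.145, a ratio of 1.25. The SD within arrays is that of single spots, while a level averages 10 spots and so carries less of that noise. The SDs within and between arrays are therefore not like quantities, and the share of printing noise in the spread was not computed. The ratios also depend on the scaling and the arrays. The SD of Mgst3 between arrays was 0.0803 with quantile normalization, 0.0894 and 0.0966 with the other percentiles and 0.105 with cyclic loess, all below its SD within arrays, but 0.197 with normexp. That of Mgst2 was 0.0788 with quantile normalization and 0.0741 without replicate 1, close to its SD within arrays. Over the 1020 detected probes printed 10 times, the median SD was 0.078 within arrays and 0.12 between arrays. On replicate 1, 1 Mgst2 spot at 4380 stood below the others, the median of all 10 being 6290, and the within-array SD there was 0.187, above the SD between arrays.

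**Figure D2:**
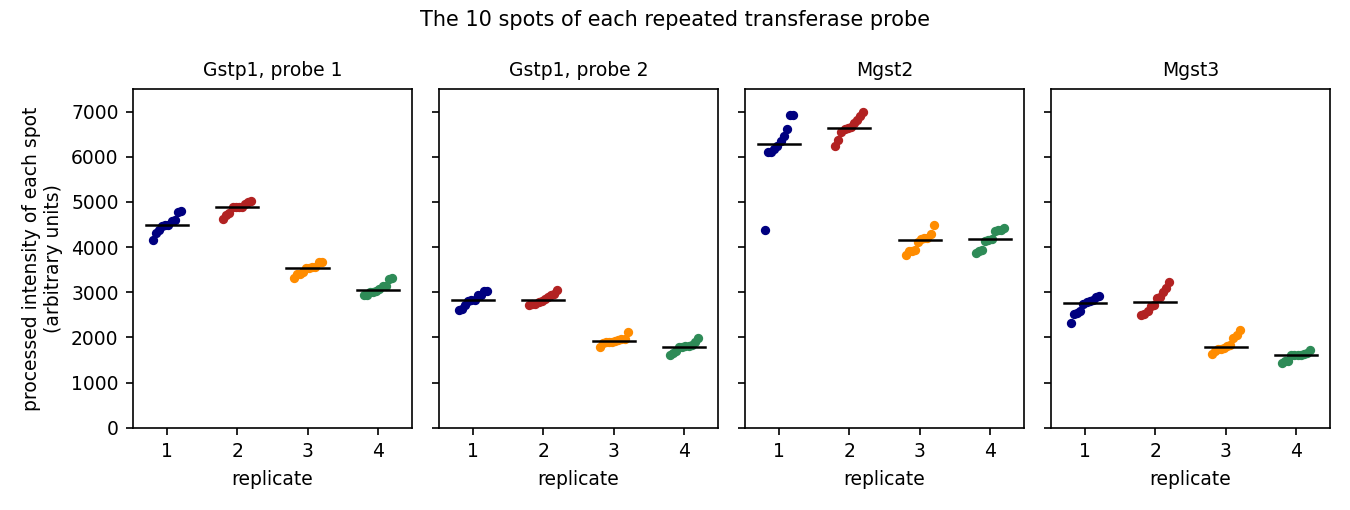
Processed intensity of each of the 10 spots (vertical axis from 0, arbitrary units) of the Gstp1 probes A_64_P170600 (probe 1) and A_44_P1370070 (probe 2), Mgst2 and Mgst3 on the 4 arrays, before scaling between arrays; black lines are medians. Spots of replicates 1 and 2 lie above those of replicates 3 and 4 for all 4 probes, except the single Mgst2 spot at 4380 on replicate 1.

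The 4 undetected members had intensities below the dimmest well-above-background spot of their array, so their values are bounds and no order is read from them. Gsta4, an alpha-class enzyme with high activity for the lipid peroxidation product 4-hydroxynonenal, had 13.9, 10.6, 9.74 and 6.82 on replicates 1 to 4, against limits of 22.3, 11.3, 10.8 and 12.1. A weaker mark of the software, for a signal that is positive and differs from background, was set for Gsta4 on all 4 arrays, as for 56.5% of genes with a symbol.

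Gstm1 is a mu-class enzyme that is abundant in rat liver. Its probes A_43_P11776 and A_44_P1082359 had intensities of 5.60, 2.60, 2.55 and 2.71, and of 4.87, 2.34, 2.27 and 3.83. The weaker mark was set for the second on 1 array and for the first on none, so the probes did not differ in the main call. Gstt1, a theta-class enzyme that acts on small halogenated compounds, had 4.53, 5.23, 2.17 and 2.90, with the weaker mark on 2 arrays. Gstk1, the kappa-class enzyme of mitochondria and peroxisomes, had 5.56, 2.61, 2.55 and 2.73, with the weaker mark on none. These genes were not well above background here, which does not show that the transcripts were absent, since a probe that binds poorly gives the same reading.

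The spread between replicates was tested for each gene against genes of like brightness, with limma and a one-sided F test of the residual variance over the 14927 genes that were detected on 2 or more arrays. Of the 6 members tested, 0 passed at an adjusted p of 0.05 and 0 had an unadjusted p under 0.05 (limma), against 0.476% and 5.06% of all genes tested. Mgst1 came nearest, with a variance 3.37 times that expected at its brightness (adjusted p = 0.987, limma), larger than for 91.9% of tested genes. Gstp1 followed with a ratio of 1.88 (adjusted p = 0.987), and Gstz1 had the smallest, 0.171 (adjusted p = 0.992). The median SD of the 6 members was 0.139 log2 units, against 0.161 over all genes tested, and 4 of the 6 lay under that median. That comparison does not allow for brightness. The variance ratio, which does, was larger than for 80.3% of tested genes for Gstp1 and 64.8% for Mgst3. It was larger than for 58.7% for Mgst2, 57.3% for Gsto1 and 8.04% for Gstz1. With normexp background correction of the raw median signal the order of the median SDs turned round, to 0.175 for the members against 0.152 over all genes tested. The number of arrays limits this test, and a p above the threshold does not show that the replicates were alike.

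**Figure D3:**
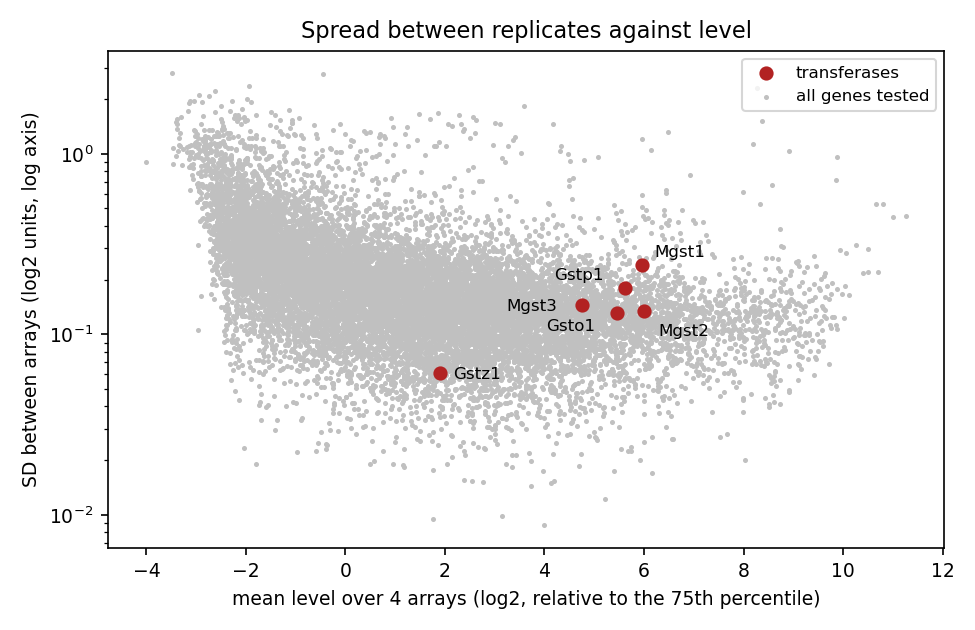
SD between the 4 arrays (vertical log axis, log2 units) against mean level (horizontal axis, log2 relative to the 75th percentile) for the 6 detected transferases in red and all 14927 genes tested in grey. Gstz1 lies low in the cloud at an SD of 0.0611 and Mgst1 highest of the 6 at 0.241, and all 6 points fall inside the grey cloud.

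The detected members shared the array on which they were lowest. All 6 had their lowest level on replicate 1, as did 39.3% of all genes tested. Of the 6, 4 were highest on replicate 2 and 2 on replicate 3, against 38.5% and 19.3% of all genes tested. For Mgst3 the next array, replicate 4, lay only 0.0098 log2 units above it. Detected genes of the lists below, by their brightest probe, shared this low array in part. Gsta1, Gstm4 and Gstt2 were lowest on replicate 1, and Gsta5 was not. Gclc, Gss, Slc3a2, Anpep, Chac1 and Oplah were lowest there, while Abcc1, Abcc4, Chac2, Dpep2, Ggct, Gsr and Slc7a11 were not. Each gene was centred on its mean, and the median of the 6 deviations for replicates 1 to 4 was -0.17, 0.15, 0.056 and -0.0054, against -0.045, 0.069, 0.015 and -0.025 over all genes tested. With quantile normalization 5 of the 6 were still lowest on replicate 1, Gstz1 being the exception, against 35.3% of all genes tested. The median deviation of the 6 there was -0.10. With normexp background correction of the raw median signal 1 of the 6 was lowest on replicate 1 and 4 were lowest on replicate 4. The shares over all genes tested were 27.6% and 40.6%. All 6 were then highest on replicate 2, as were 40.9% of all genes tested. The array on which the family was lowest was thus not the same under that setting, which changed both the starting signal and the background correction. Replicate 1 also had the highest limit for a spot well above background, 22.3, and the largest SD of negative controls, 3.31 against 1.80 to 2.19 on the other arrays. The part of these array differences in the shared deviation was not tested. Without replicate 1 the SD of Gstp1 was 0.0944, in place of 0.18. Leaving out replicates 2, 3 or 4 instead gave 0.209, 0.169 and 0.22. Replicate 1 was the array farthest from the mean of Gstp1, so a narrower SD without it follows from that choice.

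**Figure D4:**
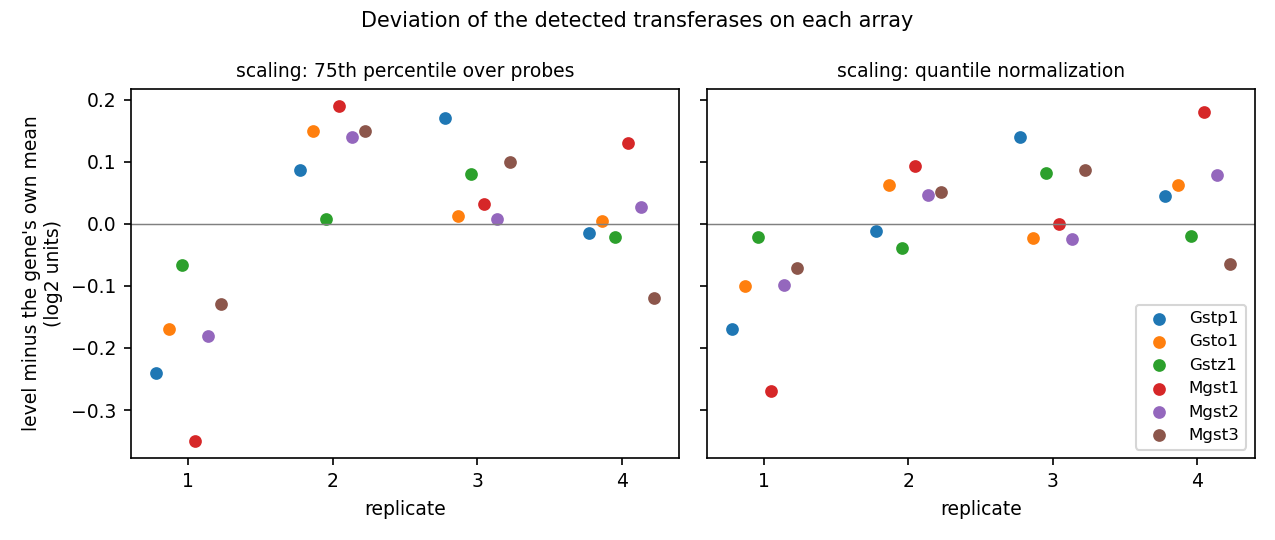
Deviation of the 6 detected transferases from their own mean (vertical axis, log2 units) on each array, with levels scaled to the 75th percentile (left) and after quantile normalization (right). On replicate 1 all 6 points lie below 0 on the left, from -0.066 for Gstz1 to -0.35 for Mgst1, and they are closer to 0 on the right.

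The remaining transferases and their membrane relatives on the array were mostly not well above background. Of 21 such genes listed, 19 had a probe, of which 4 were detected on all arrays, 4 on 1 array each and 11 on none. Among genes with a symbol, 48.0% were detected on all arrays. The 4 detected ones were the alpha-class Gsta1, with a level of 5.37 ± 0.154 (SD, n = 4), and Gsta5 with -0.88 ± 0.359, the mu-class Gstm4 with 1.60 ± 0.158, and the theta-class Gstt2 with -0.12 ± 0.0367. Gsta1 had a second detected probe at 4.91 ± 0.081, while the other 2 Gstt2 probes were well above background on 1 array and on none. For the alpha, mu and theta classes, undetected members thus stood beside a detected relative of the same class. Genes of these classes are similar in sequence, and whether a probe also binds a relative was not tested.

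Alox5ap, the activating protein of 5-lipoxygenase, had levels of -2.90, -2.67, -2.62 and -3.04 and Gsta2 levels of -2.48, -3.12, -3.20 and -2.25 on replicates 1 to 4, each well above background on 1 array. Gstm3 and Gstt4, the other 2 genes with signal on 1 array only, had 1 array far from the rest and are given with the values that stood apart. The 11 well above background on no array were Gsta3, Gsta6, Gstm2, Gstm5, Gstm6, Gstm6l, Gstm7, Gsto2, Hpgds, Ltc4s and Ptges. The weaker mark was set on 3 arrays for both Hpgds probes and on 2 for Gstm5, Gstm7, Gsto2 and Ltc4s. It was set on 1 for Gstm2, Gstm6l and Ptges, and on none for Gsta3, Gsta6 and Gstm6. Ltc4s and Ptges are membrane relatives of the detected Mgst genes that make leukotriene C4 and prostaglandin E2, and Hpgds is the sigma-class enzyme that makes prostaglandin D2. Gstt3 and Gstcd were not matched to a probe.

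Genes that supply glutathione and dispose of its conjugates were mostly detected, 13 of 18 on all arrays and 5 on none. The catalytic subunit of glutamate-cysteine ligase, Gclc, the first step of glutathione synthesis, had a level of 4.51 ± 0.102 (SD, n = 4), glutathione synthetase Gss 2.65 ± 0.152 and glutathione reductase Gsr 2.52 ± 0.156. The subunits of the cystine importer, Slc7a11 and Slc3a2, had 4.98 ± 0.157 and 6.18 ± 0.265. A second Slc7a11 probe, also detected on all arrays, lay at 0.047 ± 0.114. Cystine import, synthesis and recycling each had at least 1 detected gene.

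The conjugate exporters Abcc1 and Abcc4 had levels of 3.50 ± 0.104 and 2.91 ± 0.0843, and the peptidases Anpep and Dpep2 5.33 ± 0.123 and 2.76 ± 0.0538 (SD, n = 4). Dimmer second probes, detected on all arrays, gave 0.72 ± 0.101 for Abcc4 and 0.17 ± 0.152 for Anpep. A second Abcc1 probe gave -1.85 ± 0.476 and was well above background on 3 arrays. The glutathione-degrading enzymes Chac1 and Chac2 had 0.51 ± 0.283 and -1.63 ± 0.209, and the enzymes that recycle its glutamate, Ggct and Oplah, 1.47 ± 0.138 and -0.15 ± 0.137. Ggt1 and Ggt5, which open the breakdown of conjugates outside the cell, were well above background on no array. The same held for Dpep1, for Nat8, which acetylates conjugates to mercapturates, and for Gclm, the modifier subunit of the ligase. The weaker mark was set for the brighter Ggt1 probe on 3 arrays and for the only Gclm probe on 1. These readings do not show that the transcripts were absent.

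In a list of 8 genes, made of regulators of transferase genes and the NRF2 target Nqo1, 7 were detected on all arrays. The share over genes with a symbol was 48.0%. The transcription factor gene Nfe2l2, which encodes NRF2, had a level of 4.54 ± 0.0874 (SD, n = 4), its inhibitor Keap1 1.31 ± 0.189 and its competitor Bach1 -0.73 ± 0.355. A second Bach1 probe had -1.78 ± 0.429 and was well above background on 3 arrays. On replicate 1 this probe was lowest, at -2.26, while the brighter one was highest, at -0.28. Nqo1, a quinone reductase, had 1.33 ± 0.0987. Of the small Maf genes, whose proteins pair with NRF2, Maff had -0.39 ± 0.265, Mafk -1.07 ± 0.526 and Mafg 4.07 ± 0.531, and the SDs of Mafk and Mafg were the widest of the 7. Mafg had levels of 3.29, 4.32, 4.22 and 4.46 on replicates 1 to 4, and its variance did not pass the test (adjusted p = 0.202, limma). It was lowest on replicate 1, as were Keap1, Maff, Mafk and Nqo1, while Nfe2l2 and the brighter Bach1 probe were lowest on other arrays. Ahr, a receptor that drives several transferase genes, was detected on none.

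**Figure D5:**
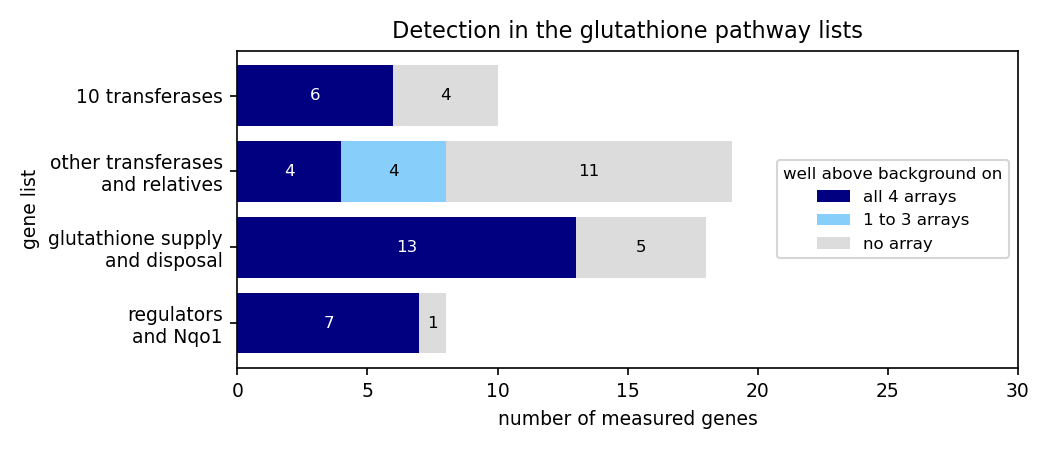
Number of measured genes (horizontal axis) well above background on all 4 arrays, on 1 to 3 arrays and on no array, for the 10 transferases and the 3 other lists, of which the last holds the regulators and Nqo1. The 10 transferases divide into 6 and 4 with none between, and the other transferases into 4, 4 and 11.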

How the data were processed

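Scanner output of 4 arrays, 1 for each biological replicate of 1 exposed group, was analysed. The deposited files hold spot intensity on a linear scale, which Agilent Feature Extraction 11.0.1.1 (version per the submitters' processing notes) had background-subtracted and detrended array by array, per the file headers, without normalization between arrays. The software's 0 or 1 marks for detection and outliers were used as deposited. Per the labels, RNA with an integrity number above 7.5 was used and 100 ng of it labelled with Cy3.

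Spots of 1 probe were averaged as log2 processed intensity, leaving out controls and spots marked non-uniform (between 0 and 7 per array, except where a probe had no other spot), and each array was shifted so that the 75th percentile of its 45598 probes was 0. Detection of a probe needed the software's mark on 50% or more of its spots, and that of a gene needed 1 detected probe. Accessions without versions were matched to RefSeq genes of assembly GRCr8, which named 21109 probes (46.3%). The files' headers name another build, so that table served for names only. The brightest probe stood for a gene.

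With 1 group, the one replicated test was that of the spread: lmFit of limma 3.58.1 in R 4.3.3 with an intercept, and a one-sided F test of the residual variance against the squeezeVar prior with a trend (6.45 prior degrees of freedom), with Benjamini-Hochberg adjustment over 14927 genes. It was tested on simulated data with independent normal noise. The precision is limited by the 4 arrays. No likeness between genes was computed, since 4 samples are fewer than the 6 a correlation needs. Members, lists and tests were chosen with earlier results of these data known. The text names every member, and gives the level of each gene of the 3 pathway lists that was detected on at least 1 array; cell type markers are given as counts. Alternatives were 4 other scalings, another background correction, other rules for probes, filter and prior, and leaving out each replicate.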

Additional observations from a re-analysis of the deposited data

Results flagged for a closer look

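Of 43 named genes well above background on at least 1 array, 2 had 1 array whose gap to the nearest other took more of their range than Dixon's 95% critical value allows. Chance flags about 1 in 20 groups, but both genes entered the 43 only through the array on which they were high, so that rate does not apply to them. Gstt4 had levels of 1.26, -5.24, -4.71 and -4.62 on replicates 1 to 4, and the gap took 0.906 of the range. It was well above background on replicate 1 only, with 1 of its 3 probes, A_44_P1153077, at intensities of 262, 2.49, 2.43 and 2.59, and the other 2 probes, whose intensity on replicate 1 was 4.52 and 5.37, were so on no array. Gstm3, a mu-class enzyme, had levels of -4.43, -2.39, -4.69 and -4.60, and the gap took 0.888 of the range. It was well above background on replicate 2 only, through probe A_44_P1365170 at an intensity of 17.9, while its other probe had 2.28 there. Each of these probes has 1 spot per array, and the cause was not tested. None of the 6 detected members was among the 2, and the 4 undetected members were not among the 43 examined.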

How the results depend on the processing

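The detection of 6 members on all arrays held when any replicate was left out and under both other rules for several probes, and it was 7, with Gsta4 added, under the weaker detection mark. The count of 0 members past the variance test (limma) held under all 14 alternatives, and the adjusted p of a detected member lay between 0.746 and 0.996. The count over all genes was 71 and changed to 0 with the 75th percentile over detected probes, over all spots and with a prior without trend, to 14 with quantile normalization, 43 with cyclic loess, 238 with normexp, 211 with a robust prior and 351 without the filter on dim probes, and it was 28 to 164 with a replicate left out. Levels depend on the scaling: with percentiles over detected probes or all spots the median tested gene moved by -3.52 and -2.36 log2 units, and with normexp by -0.41. The normexp alternative was chosen after seeing the files, which hold no mean signal, and used the median signal. The median SD of the 6 members was 0.139, and over the other scalings it ran between 0.0797 with quantile normalization and 0.175 with normexp. No paired analysis was possible because the series as analysed has 1 group. The 4 dim members lay under the dimmest well-above-background spot of their array, a limit that was highest on replicate 1, and the cause was not tested.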

Other observations

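Besides the genes described, 2 more symbols of the family had a probe, Gstp3 and Gsta4l1, and they were looked up after the values of the others had been seen. Gstp3, which lies in the pi class beside Gstp1, was well above background on 3 of the 4 arrays. Its levels were -2.31, -2.01, -1.99 and -2.33 on replicates 1 to 4, a mean of -2.16 ± 0.185 (SD, n = 4). Gsta4l1, named for its likeness to Gsta4, was not well above background on any array.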
